A study of Mus musculus with 8 samples.

Results

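The genes described here are 40 genes of mitosis, listed by name: cyclins and Cdk1 with its partners, mitotic kinases, spindle checkpoint genes, chromosomal passenger and kinetochore genes, kinesins and other spindle genes, and genes of chromosome structure. Members were all probe sets of the mouse array whose annotation gave 1 of these symbols and no other. Of the 40 genes, 36 were on the array, with 48 of its 12422 gene probe sets, and Ccnb1, Cdc25b, Bub1b and Hmmr had none. A probe set was tested where it reached a log2 value of 5 on at least 2 arrays, which kept 39 member probe sets of 34 genes among 6756 probe sets of 5195 genes. Ube2c and Cenpe did not reach it, 31 members reached it on all 8 arrays, and Ccnf, Aurkb and Kif2c reached it on 2 to 7 arrays. Each gene is given by its tested probe set with the highest mean.

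The study measured mouse embryonic fibroblasts (MEFs) of 2 spontaneously immortalised lines, 1 with both copies of Stat3 (STAT3+/+) and 1 with neither (STAT3-/-). Oncostatin M (OSM), an interleukin-6 type cytokine that activates STAT3 through gp130, was given to part of the cells of either line at 20 ng/ml for 30 minutes, and the rest were untreated. All 4 groups grew in medium with 10% serum and 2 mM glutamine. Each group held 2 arrays, and their titles carry the number 2 or 3, so that each number holds 1 array of every group. The treatment of each array was taken from its title. The sources used here do not give what the title numbers mark or whether the arrays came from separate cultures. The p-values thus cover the spread among these arrays alone, and that spread may be technical. With 1 line for each genotype, genotype and line cannot be told apart.

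Mitotic genes are switched on together late in the cell cycle and their transcripts are removed again as cells leave it, so dividing cells hold far more of them than resting cells. Cyclins A and B with Cdk1 drive entry into mitosis, the Aurora and Polo kinases build the spindle, and the checkpoint holds back the anaphase-promoting complex until all chromosomes are attached. Foxm1 and B-Myb are known activators of these genes, and the DREAM complex is their repressor in resting cells. In bulk RNA, a smaller share of dividing cells and less transcript per dividing cell cannot be told apart.

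Stretches of 150 bases just before the transcription start are shown for the 4 members with the largest differences between the title numbers and the 3 with the smallest among members with a RefSeq entry (GRCm38.p6, each 5′ to 3′ on the gene's own strand). Capitals mark 2 motifs known from mitotic promoters: the cell cycle genes homology region (CHR; TTTGAA or TTCGAA, on both strands) and the CCAAT box (both strands), which bind DREAM and NF-Y. The first 4 are of the largest differences and the last 3 of the smallest:
Ccnf (chr17:24251410-24251559, minus strand): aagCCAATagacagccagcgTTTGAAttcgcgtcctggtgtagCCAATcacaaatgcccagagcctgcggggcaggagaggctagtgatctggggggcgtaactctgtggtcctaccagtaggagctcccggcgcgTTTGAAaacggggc
Kif2c (chr4:117178773-117178922, minus strand): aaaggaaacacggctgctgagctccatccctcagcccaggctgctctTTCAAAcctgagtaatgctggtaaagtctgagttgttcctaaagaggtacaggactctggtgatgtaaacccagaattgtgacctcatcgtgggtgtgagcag
Cenpa (chr5:30666736-30666885, plus strand): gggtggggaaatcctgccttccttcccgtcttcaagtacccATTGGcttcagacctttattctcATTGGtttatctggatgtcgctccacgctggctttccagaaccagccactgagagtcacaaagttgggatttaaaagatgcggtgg
Cdca8 (chr4:124936918-124937067, minus strand): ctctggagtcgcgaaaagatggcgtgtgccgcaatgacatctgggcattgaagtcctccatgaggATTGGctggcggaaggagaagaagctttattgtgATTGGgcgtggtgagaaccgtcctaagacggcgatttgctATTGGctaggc
Kif22 (chr7:127042421-127042570, minus strand): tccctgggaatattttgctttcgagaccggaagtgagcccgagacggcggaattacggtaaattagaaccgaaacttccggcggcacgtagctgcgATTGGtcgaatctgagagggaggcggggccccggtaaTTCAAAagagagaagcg
Bub3 (chr7:131560220-131560369, plus strand): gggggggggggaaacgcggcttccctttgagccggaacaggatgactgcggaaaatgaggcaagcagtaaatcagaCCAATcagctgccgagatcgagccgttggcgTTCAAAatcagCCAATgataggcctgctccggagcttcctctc
Mad2l1 (chr6:66535071-66535220, plus strand): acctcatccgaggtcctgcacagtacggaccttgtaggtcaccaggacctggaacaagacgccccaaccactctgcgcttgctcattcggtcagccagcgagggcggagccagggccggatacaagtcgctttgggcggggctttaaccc

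Ccnf held both motifs more than once in this stretch, Kif2c a CHR match alone, and Cenpa and Cdca8 CCAAT boxes alone. Among the promoters of the smallest differences, Kif22 and Bub3 held both motifs and Mad2l1 neither, so the motifs did not sort these 7 genes by their difference. Over the 250 bases before the start, 15 of the 32 members with an entry (46.9%) held a CHR match, against 19.6% of all 27025 genes. CCAAT boxes were in 28 of the 32 (87.5%), against 37.5% of all genes. An E2F motif of G1/S genes (GCGGGAA or GCGCGAA, both strands) was in 2 of the 32, Cdk1 and Hmmr (6.2%), against 5.7% of all genes. Tested members with a CHR match had a median log2 difference between title numbers of -2.30 (13 genes) and those without it -2.49 (13 genes). For the CCAAT box the medians were -2.49 with it (22 genes) and -1.99 without it (4 genes). These matches are a description of the letters and show no binding. For Foxm1, Aurkb, Ccna2, Kif20a, Cdc25c, Stmn1, Incenp and Smc4 no promoter was used.

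The values are log2 GCRMA expression values, on which a difference of 1 is a 2-fold change, and values under 5 lie near background. Array medians ran from 5.27 to 5.66. The 18S ribosomal RNA control read 11.02 to 11.67 in title number 2 and 14.75 to 15.13 in title number 3. In STAT3+/+ cells of title numbers 2 and 3, Stat3 itself read 10.11 and 10.50 untreated and 11.82 and 11.94 with OSM. In STAT3-/- cells it read 8.08 and 7.81 untreated and 8.70 and 9.17 with OSM. Its other probe set read 9.80 to 12.57 in STAT3+/+ cells, 2.76 to 2.94 on 3 STAT3-/- arrays and 7.30 on the array labelled STAT3-/- with OSM, title number 3. Stat3 was lower in STAT3-/- cells within both numbers (log2 difference -2.58 ± 0.29 and -2.73 ± 0.29, SE; limma adjusted p = 0.00638 and 0.00656). Among markers of other cell types, the mean of the epithelial list was 3.00 to 3.24 over the arrays and that of the leukocyte list 3.83 to 4.34. The endothelial list read 3.97 to 4.82, the muscle list 3.21 to 3.64 and the neural list 4.42 to 4.81, while the fibroblast list read 10.01 to 11.49.

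The mitotic genes were high in title number 2 in both lines, and lower in title number 3, more so in STAT3+/+ cells. The mean over the 36 genes was 11.16 in untreated STAT3+/+ cells of title number 2 and 8.49 in those of title number 3. With OSM the same line gave 10.93 and 7.90. In STAT3-/- cells the means were 10.56 and 9.48 untreated, and 10.57 and 9.33 with OSM. The order of the lines thus turned between the numbers: STAT3+/+ lay above STAT3-/- on the arrays of title number 2 and below it on those of title number 3. The opposite signs were known when these genes were chosen, so they are given here as a description and not as an independent finding.

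**Figure D1:**
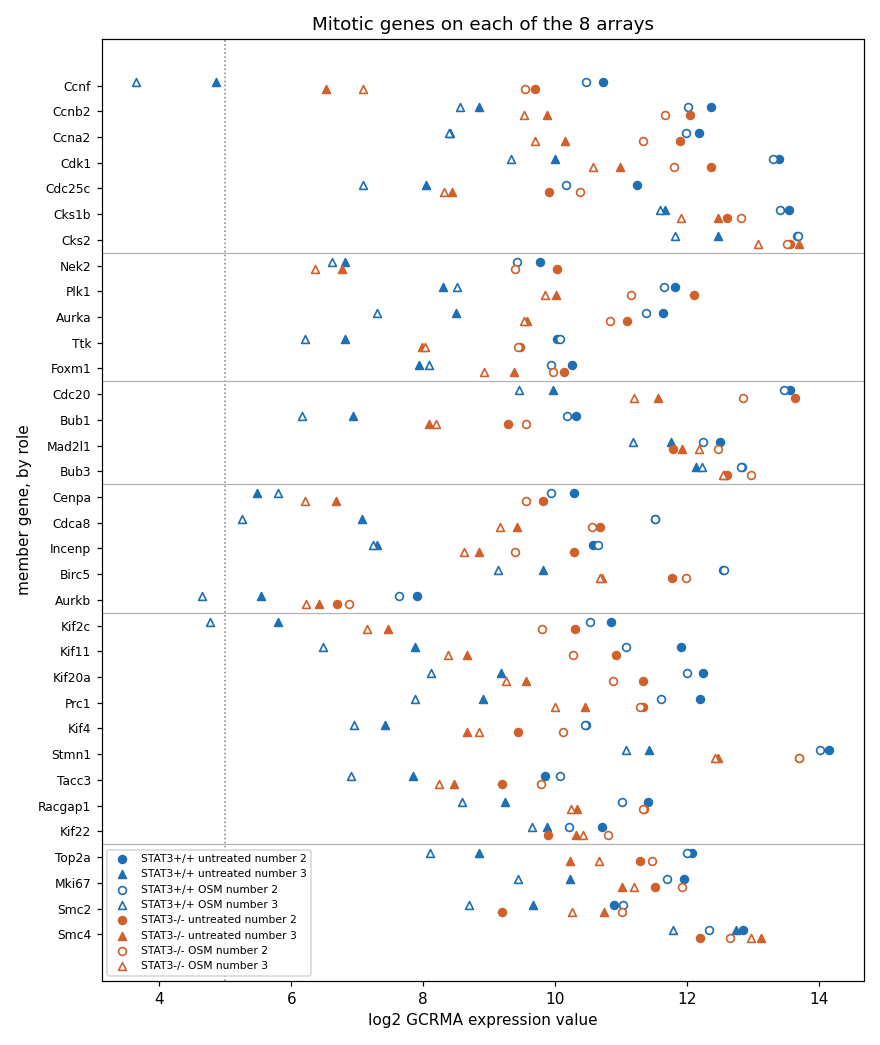
Log2 GCRMA value (x axis) of each of the 34 tested mitotic genes (y axis, grouped by role) on each of the 8 arrays, 1 point an array, with colour and shape for the line, treatment and title number as the key gives them, and a dotted line at 5. The STAT3+/+ arrays of title number 3 lie farthest left for most genes, as for Ccnf at 4.85 and 3.65, while Bub3 stays between 12.14 and 12.97.

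Between the title numbers, 27 of the 34 genes were lower in title number 3 and none was higher (limma with title number added to the group means, adjusted p under 0.05). The members were chosen with earlier results of these data known. The calls and p-values between title numbers, here and by role below, thus describe sizes and are no independent test. Of all probe sets tested, 17.7% were called lower and 23.4% higher. The members' median log2 difference was -2.27, against 0.09 over all probe sets, and 29 of the 34 did not overlap between the numbers, against 16.5% of all probe sets that were lower without overlap. Without the untreated STAT3+/+ array of title number 2, or that of title number 3, 14 genes were called.

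Cyclins, Cdk1 and its partners gave 6 calls of 7. Ccnf, cyclin F, a substrate adaptor of an SCF ubiquitin ligase, read 10.72 and 4.85 untreated and 10.47 and 3.65 with OSM in STAT3+/+ cells (title numbers 2 and 3), and 9.69 and 6.53 untreated and 9.54 and 7.08 with OSM in STAT3-/- cells. All 4 arrays of title number 3 lay below all 4 of title number 2, with both STAT3+/+ arrays near or under the background level, and the difference was -4.58 ± 0.78 (SE, adjusted p = 0.0098). Ccnb2, cyclin B2, which activates Cdk1 at mitotic entry, read 12.37 and 8.84, 12.01 and 8.56, 12.04 and 9.87, and 11.66 and 9.52 in the same order, and differed by -2.82 ± 0.31 (adjusted p = 0.00435). Cdk1, the kinase that drives mitosis, read 13.40 and 10.00, 13.30 and 9.33, 12.36 and 10.98, and 11.80 and 10.57. It was lower in title number 3 by a log2 difference of -2.50 ± 0.52 (adjusted p = 0.0165), and the number 3 values of STAT3-/- cells lay between those of STAT3+/+ cells and the number 2 values. Ccna2, cyclin A2 (-2.69), Cdc25c, a phosphatase that activates Cdk1 (-2.45, and -1.18 by its other tested probe set), and the Cdk1-binding subunit Cks1b (-1.18) were also lower. The related subunit Cks2 had the highest mean of the group, at 13.67 and 12.47, 13.68 and 11.81, 13.56 and 13.69, and 13.52 and 13.08. Its numbers overlapped in STAT3-/- cells and the difference of -0.85 ± 0.33 did not pass (adjusted p = 0.0907).

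The 4 mitotic kinases and the transcription factor Foxm1 were all called, 5 of 5. Nek2, a kinase that separates the centrosomes, read 9.77 and 6.81 untreated and 9.42 and 6.61 with OSM in STAT3+/+ cells, and 10.03 and 6.76 untreated and 9.39 and 6.36 with OSM in STAT3-/- cells. It was lower in title number 3 in each of the 4 groups, by -2.81 to -3.27, and it had the smallest p of the members (-3.02 ± 0.17, adjusted p = 0.00255). Plk1, the Polo-like kinase, read 11.82 and 8.30, 11.65 and 8.51, 12.11 and 10.01, and 11.15 and 9.85 (-2.52 ± 0.39, adjusted p = 0.00805). Its other tested probe set differed by -3.02 ± 0.41 (adjusted p = 0.0061). Aurka, which builds the spindle poles, differed by -2.50, Ttk, the kinase that starts checkpoint signalling, by -2.49, and Foxm1 by -1.49. Foxm1 had another tested probe set, which differed by -3.86 ± 0.69 (adjusted p = 0.011), so the size for Foxm1 depends on the probe set.

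Of the checkpoint genes and their target, 2 of 4 were called. Cdc20, the activator of the anaphase-promoting complex, read 13.56 and 9.97, 13.47 and 9.45, 13.64 and 11.56, and 12.85 and 11.19 in the same order, and differed by -2.84 ± 0.43 (adjusted p = 0.00768). Bub1, a checkpoint kinase at kinetochores, differed by -2.49 ± 0.54 (adjusted p = 0.0182). Bub3, which brings Bub1 to kinetochores and had the highest mean of the group, read 12.84 and 12.14, 12.81 and 12.22, 12.61 and 12.56, and 12.97 and 12.55. Its numbers did not overlap, but the difference of -0.44 ± 0.15 did not pass (adjusted p = 0.0607). Mad2l1, the checkpoint protein that binds Cdc20, did not pass either (-0.49 ± 0.22, adjusted p = 0.125).

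Chromosomal passenger and kinetochore genes gave 4 calls of 5. Cenpa, the histone H3 variant that marks centromeres, read 10.28 and 5.48 untreated and 9.93 and 5.79 with OSM in STAT3+/+ cells, and 9.81 and 6.68 untreated and 9.56 and 6.21 with OSM in STAT3-/- cells. The numbers lay far apart in all 4 groups (-3.85 ± 0.32, adjusted p = 0.00316). Cdca8, Borealin of the passenger complex, read 11.51 and 7.07, 11.52 and 5.25, 10.68 and 9.42, and 10.56 and 9.16, so that most of its difference of -3.34 ± 0.90 (adjusted p = 0.0323) lay in STAT3+/+ cells. Birc5, Survivin, had the highest mean of this group, at 12.55 and 9.82, 12.56 and 9.13, 11.77 and 10.71, and 11.98 and 10.68 (-2.13 ± 0.43, adjusted p = 0.0153). The scaffold Incenp differed by -2.23. The passenger kinase Aurkb, which read 4.65 to 7.90, missed the threshold (-1.56 ± 0.50, adjusted p = 0.0532).

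Among kinesins and other spindle and cytokinesis genes 8 of 9 were called. Kif2c, a kinesin that takes microtubules apart at centromeres, read 10.84 and 5.80, 10.53 and 4.76, 10.30 and 7.46, and 9.80 and 7.14 (-4.08 ± 0.59, adjusted p = 0.00699). Kif11, the motor that pushes spindle poles apart, read 11.91 and 7.88, 11.07 and 6.48, 10.92 and 8.66, and 10.27 and 8.37 (-3.19 ± 0.50, adjusted p = 0.00828). Stmn1, Stathmin, which binds free tubulin and has the highest mean here, read 14.15 and 11.43, 14.02 and 11.08, 13.69 and 12.47, and 13.69 and 12.42 (-2.04 ± 0.35, adjusted p = 0.01). In each of these 3 genes every array of title number 3 lay below every array of title number 2. Kif20a and Prc1, which organise the central spindle, differed by -2.58 and -2.30, and the chromosome motor Kif4 by -2.15. Tacc3, of the kinetochore fibres (-1.86), and Racgap1, of the cytokinetic furrow (-1.68), were also lower. Kif22, a kinesin bound to chromosome arms, read 10.71 and 9.88, 10.21 and 9.65, 9.89 and 10.32, and 10.80 and 10.42, with overlap and no call (-0.34 ± 0.24, adjusted p = 0.292).

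In the chromosome structure group 2 of 4 were called. Top2a, the topoisomerase that untangles sister chromatids, read 12.07 and 8.85, 12.00 and 8.10, 11.29 and 10.23, and 11.47 and 10.66 (-2.25 ± 0.58, adjusted p = 0.0285). Mki67, the Ki-67 proliferation marker, differed by -1.30 ± 0.33 (adjusted p = 0.0269). The condensin subunit Smc4 read 12.85 and 12.74, 12.33 and 11.78, 12.19 and 13.12, and 12.65 and 12.97, and was the single member above 0 (0.15 ± 0.25, adjusted p = 0.66). Its partner Smc2 read 9.19 in untreated STAT3-/- cells of title number 2 and 8.70 to 11.03 on the other arrays, and did not pass (-0.70 ± 0.61, adjusted p = 0.389).

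Within STAT3+/+ cells alone 30 of the 34 members were lower in title number 3, with a median of -3.30 and all 34 below 0 (limma with OSM, genotype, title number and their interaction; 20.4% of all probe sets were lower and 23.1% higher). Differences ran from -0.33 for Smc4 to -6.34 for Ccnf. Within STAT3-/- cells 21 were lower, with a median of -1.21 (11.8% of all probe sets were lower and 13.9% higher). Nek2 (-3.15 ± 0.22), Cenpa (-3.24 ± 0.26) and Ccnf (-2.81 ± 0.41) had the largest differences there. In these fits the untreated and OSM arrays of a line serve as replicates within a number, and they may not be independent. Without the STAT3-/- array of title number 3, untreated or with OSM, 4 and 7 genes were called, with medians of -1.13 and -1.28. In 33 of the 34 members both STAT3+/+ pairs fell by more than both STAT3-/- pairs, against 28.1% of all probe sets, and Nek2 was the exception. Each such pair is 1 array against 1. A larger fall in STAT3+/+ cells is another form of the turned genotype difference with which these genes were chosen. It is thus a description and no independent finding.

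**Figure D2:**
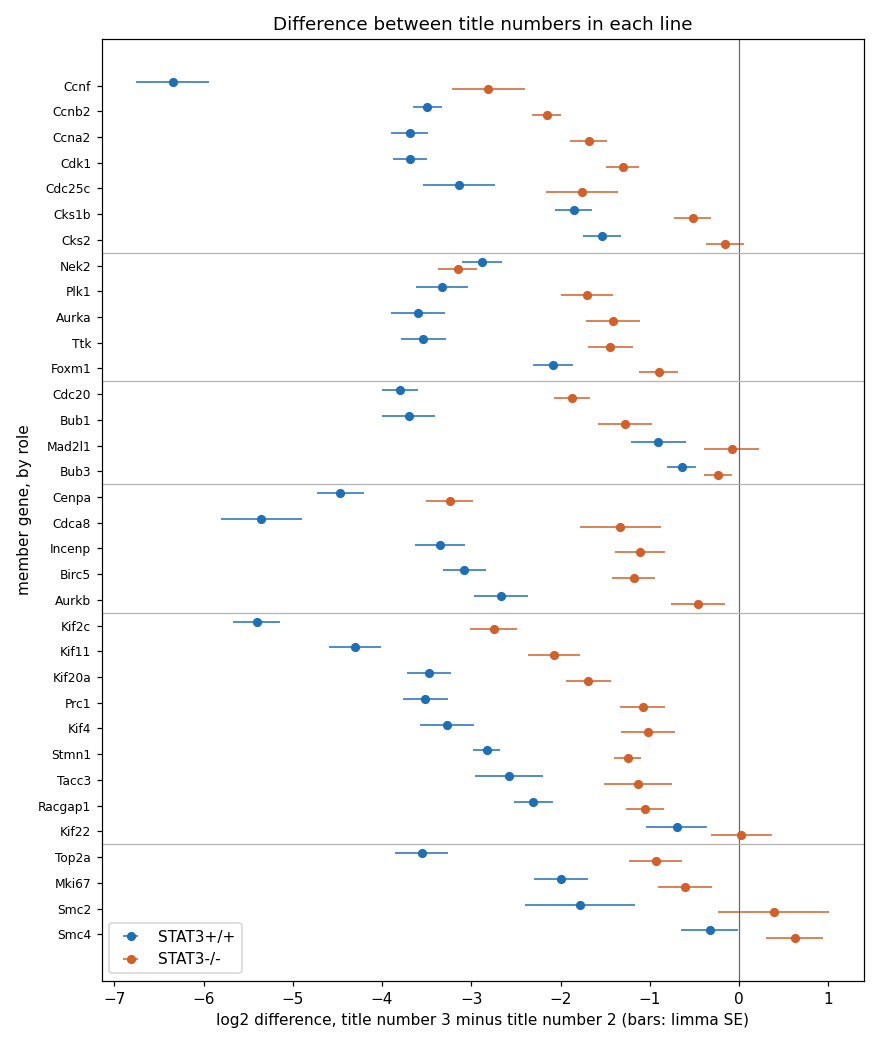
Log2 difference, title number 3 minus title number 2 (x axis), of each mitotic gene (y axis, by role), with 1 point for STAT3+/+ and 1 for STAT3-/- cells and bars for the limma SE. STAT3+/+ points lie left of STAT3-/- points in all genes but Nek2, with Ccnf at -6.34 against -2.81. The genes were chosen with this pattern known.

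The genotypes were then compared within each title number, where the untreated and OSM arrays of a line give 2 arrays a side. These 2 arrays may not be independent, so the SE and p-values may be too small. As these genes were chosen with the opposite signs known, the calls and p-values here describe the sizes and are no independent test. In title number 2, STAT3-/- cells had lower Cdk1 (-1.27 ± 0.19, adjusted p = 0.0195), the 1 member called of 34, while 3.02% of all probe sets were called lower and 2.56% higher. Without either STAT3+/+ array of title number 2 or either STAT3-/- array of title number 3 this call was lost, and without the STAT3-/- OSM array of title number 2 there were 3 calls. The members' median was -0.56, against -0.04 over all probe sets, and 32 members lay below 0, against 3597 of the 6756 probe sets. Of the members 21 lay below without overlap (23.5% of all probe sets). Next by p were Kif20a (-1.02 ± 0.25, adjusted p = 0.0733) and Cks1b (-0.77 ± 0.21, adjusted p = 0.0918). Kif20a read 12.24 and 12.00 in STAT3+/+ cells of title number 2 and 11.33 and 10.87 in STAT3-/- cells (untreated and OSM). Cks1b read 13.54 and 13.41 against 12.60 and 12.82. Incenp's dimmer probe set differed by -2.26 ± 0.25 (adjusted p = 0.00594), while its brighter one did not pass (-0.78).

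In title number 3 the members were higher in STAT3-/- cells: 21 of 34 rose and none fell, while 3.83% of all probe sets were called higher and 2.95% lower. The median was 1.25 against -0.02 over all probe sets, and 33 members lay above without overlap (23.2% of all probe sets). Cdca8 was higher by 3.13 ± 0.46 (adjusted p = 0.018), with 7.07 and 5.25 in STAT3+/+ cells (untreated and OSM) and 9.42 and 9.16 in STAT3-/- cells. Ccnf rose by 2.56 ± 0.41 (adjusted p = 0.0223), from 4.85 and 3.65 to 6.53 and 7.08. Kif2c rose by 2.02 ± 0.26 (adjusted p = 0.0127), from 5.80 and 4.76 to 7.46 and 7.14. Of these STAT3+/+ values, both of Ccnf and that of Kif2c with OSM lay under 5, near background.

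Brighter members rose too. Top2a was higher by 1.97 ± 0.30, Prc1 by 1.83, Cdc20 by 1.66 ± 0.20 (the smallest p, adjusted p = 0.0103), Aurka by 1.65 and Bub1 by 1.60. Cdk1 rose by 1.11, from 10.00 and 9.33 to 10.98 and 10.57, the reverse of its direction in title number 2. By role, 5 of 7 cyclins and Cdk1 partners rose, 4 of 5 kinases and Foxm1, 2 of 4 checkpoint genes, 3 of 5 passenger and kinetochore genes, 6 of 9 spindle genes and 1 of 4 chromosome structure genes. The others among the 21 were Ccna2, Ccnb2, Cks2, Plk1, Ttk, Foxm1, Birc5, Incenp, Kif11, Kif4, Racgap1 and Stmn1, with differences of 1.0 to 1.57. Nek2 lay at -0.15 ± 0.22 (adjusted p = 0.805), the single member below 0. No member was called without the STAT3-/- array of title number 3, untreated or with OSM, and 1 without the STAT3+/+ OSM array of that number. Without the other STAT3+/+ arrays 7 or 8 were called. The median kept its sign throughout, at 1.04 to 1.5.

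The remaining genes called in title number 3 are given on all arrays, in the order used above. Ccna2 read 12.18 and 8.40, 11.99 and 8.39, 11.90 and 10.15, and 11.33 and 9.70 (1.53 ± 0.20 within title number 3). Racgap1 read 11.41 and 9.24, 11.02 and 8.58, 11.34 and 10.33, and 11.33 and 10.24 (1.37 ± 0.22). Foxm1 read 10.26 and 7.94, 9.94 and 8.09, 10.13 and 9.38, and 9.97 and 8.92 (1.13 ± 0.22). By its other tested probe set the genotype differences in title number 3 were 1.32 untreated and 3.33 with OSM. That probe set read 4.32, near background, in STAT3+/+ cells with OSM of title number 3. In these 3 genes the lines lay closer together on each pair of title number 2 than on each pair of title number 3. Aurka read 11.64 and 8.50, 11.37 and 7.30, 11.09 and 9.58, and 10.83 and 9.52. Ttk, the kinase upstream of the checkpoint, read 10.03 and 6.82, 10.08 and 6.20, 9.47 and 7.98, and 9.44 and 8.03. Bub1 read 10.32 and 6.93, 10.18 and 6.16, 9.29 and 8.09, and 9.56 and 8.20. In all 3 kinases STAT3-/- cells were the lower line in title number 2 and the higher one in title number 3, on each pair of arrays. Incenp read 10.58 and 7.30, 10.65 and 7.24, 10.29 and 8.84, and 9.39 and 8.62, but its other tested probe set did not pass in title number 3 (0.05 ± 0.25, adjusted p = 0.964), where it read 4.27 to 4.44. Kif4 read 10.47 and 7.42, 10.45 and 6.95, 9.43 and 8.67, and 10.12 and 8.85. Prc1, which bundles microtubules of the central spindle, read 12.20 and 8.91, 11.61 and 7.88, 11.33 and 10.45, and 11.28 and 10.00. The same order of the lines held on each pair for these 3 genes too.

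The change of the genotype difference from title number 2 to 3 is the pattern these genes were chosen with, so it is given as a description. It passed the adjusted threshold in 19 members, all toward higher values in STAT3-/- cells in title number 3, while 2.98% of all probe sets passed in that direction and 2.19% in the other. The median was 1.84 against 0.01 over all probe sets. Cdca8 had the largest size (4.02 ± 0.65, SE), then Ccnf (3.53 ± 0.58), Kif2c (2.65 ± 0.37), Top2a (2.63 ± 0.42) and Prc1 (2.43 ± 0.36), while Cdk1 differed by 2.38 ± 0.27. Plk1 was not among the 19 by the probe set shown (1.63 ± 0.41, limma adjusted p = 0.0824). Its other tested probe set did pass (1.82 ± 0.29, adjusted p = 0.0244). In 23 members the genotype difference was below 0 in both pairs of title number 2 and above 0 in both pairs of title number 3, against 9.65% of all probe sets. None was called without the STAT3+/+ OSM array of title number 2 or either STAT3-/- array of title number 3. Without the untreated STAT3+/+ array of title number 2 there was 1, without that of title number 3 there were 11, and without the STAT3+/+ OSM array of title number 3 there were 3. The median stayed between 1.54 and 2.00. Without the STAT3-/- OSM array of title number 2, 23 members were called.

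**Figure D3:**
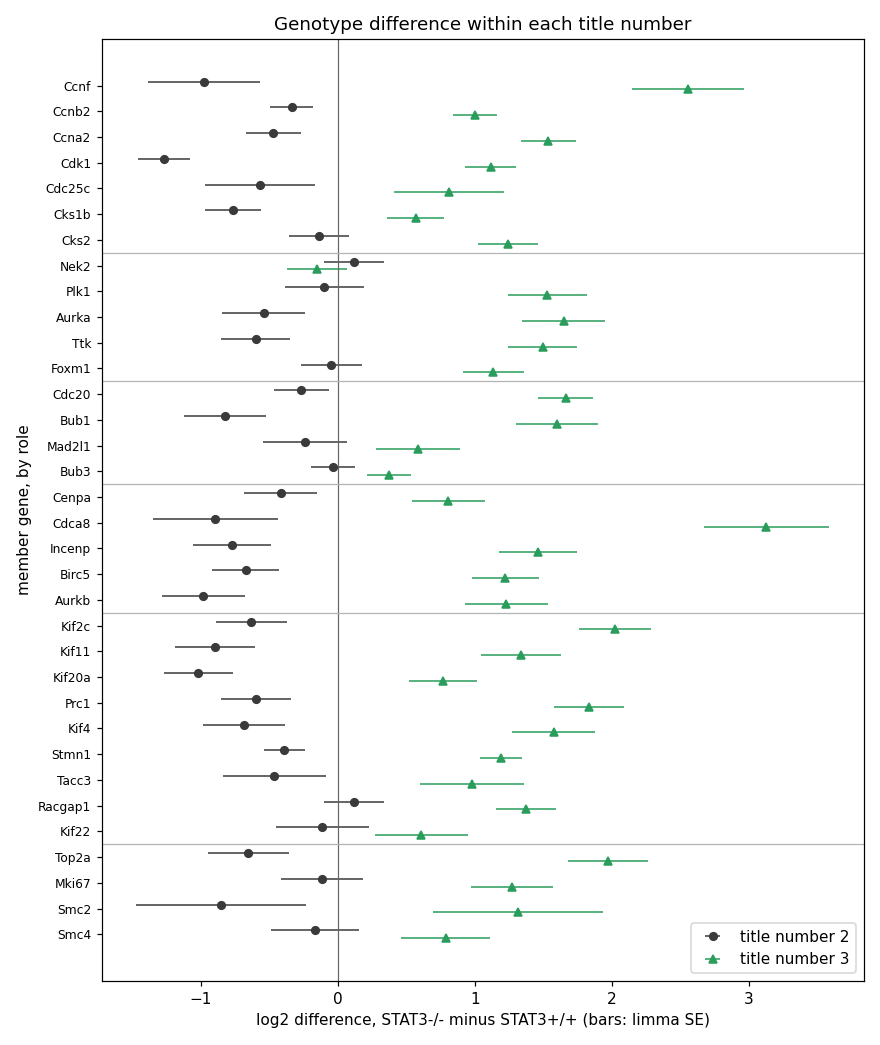
Log2 difference, STAT3-/- minus STAT3+/+ (x axis), of each mitotic gene (y axis, by role) within title number 2 (circles) and title number 3 (triangles), with bars for the limma SE. Circles lie below 0 for 32 genes and triangles above 0 for 33 genes, with Cdca8 at -0.90 and 3.13 and with Nek2 on the opposite sides at 0.12 and -0.15.

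With the title numbers pooled, the genotypes gave no call in these genes. The genes were chosen with opposite signs of the genotype difference in the numbers, which largely cancel when pooled. The missing calls and the overlap given here follow in part from that choice and do not show equal levels. The fit on group means also keeps the title number in its spread. In untreated cells limma on group means called no member (0% of all probe sets), and no member had an unadjusted p below 0.05 (151 of all probe sets did), and the median was 0.21. The values of all 34 members overlapped between the genotypes (6.81% of all probe sets were higher and 12.4% lower without overlap). The smallest p were those of Cks2 (0.55 ± 0.68), Foxm1 (0.66 ± 0.96) and Plk1 (1.0 ± 1.54), each with adjusted p = 1. Within the numbers the untreated pairs gave medians of -0.66 (title number 2) and 1.08 (title number 3). With OSM limma called no member (0.0148% of all probe sets, 1 probe set), and no member's unadjusted p lay below 0.05. The median was 0.56 with 31 above 0, and -0.43 and 1.36 within the numbers. Smc4 (0.76 ± 0.38), Kif22 (0.68 ± 0.42) and Mad2l1 (0.62 ± 0.44) had the smallest p there, each with adjusted p = 1. These genes differed little between the title numbers, so their rank partly reflects a small spread in this fit. Leaving out either STAT3+/+ array of a comparison unbalances the numbers, and the medians then ran from -1.30 to 1.67 untreated and from -1.11 to 2.10 with OSM. With the title number as a block no member was called in either, though the block leaves the unlike number difference of the lines in the spread.

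OSM for 30 minutes called no mitotic gene in either line or over both. In STAT3+/+ cells no probe set at all was called (0%), and 126 of all probe sets had an unadjusted p under 0.05, none a member. The fits within each line are on group means and keep the title number in their spread. The SE of Ccna2 was 1.66 in STAT3+/+ cells, and 0.14 for OSM over both lines with title number and genotype held. Genes that differ much between the numbers could thus hardly be called, and the missing calls do not show that OSM had no effect on them. The members' median was -0.38, against -0.04 over all probe sets. Below 0 lay 31 members, and 3796 of the 6756 probe sets. The pairs gave -0.21 in title number 2 and -0.66 in title number 3. A block for the title number gave 1 call, and 485 probe sets reached an unadjusted p below 0.05. No member was among either, but the block still leaves the unlike number difference of the lines in the spread. In STAT3-/- cells again no probe set was called (0%; 138 had an unadjusted p under 0.05, none a member), the members' median was -0.10, and the pairs gave -0.04 and -0.21. The block gave 2 calls and 746 such probe sets there, again with no member among either. The smallest p were those of Smc4 (-0.74 ± 0.38) and Mad2l1 (-0.42 ± 0.44) in STAT3+/+ cells, and of Kif22 (0.50 ± 0.42), Mad2l1 (0.47 ± 0.44) and Smc2 (0.67 ± 0.94) in STAT3-/- cells, each with adjusted p = 1. These genes were among the members that differed least between the title numbers, so their spread in this fit was small. Their rank partly reflects that and does not mark the strongest response to OSM. Mad2l1 read 12.50 and 11.75 untreated and 12.24 and 11.18 with OSM in STAT3+/+ cells, and 11.79 and 11.92 against 12.47 and 12.18 in STAT3-/- cells. Its direction was thus opposite in the lines, in both title numbers. Leaving out 1 array of a comparison turned the median's sign in both lines (-2.02 to 1.26 and -0.75 to 0.56). It also unbalances the title numbers between OSM and untreated arrays, so the number difference enters these medians.

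With title number and genotype held, 4 OSM arrays meet 4 untreated ones. The members' median was -0.27, and -0.31 to -0.16 with each array left out in turn. Of the 34 members 29 lay below 0, as did 3585 of the 6756 probe sets. Limma called none of the members, and the unadjusted p of 8 (23.5%) lay below 0.05, as did that of 1244 of all probe sets (18.4%). Over all probe sets, 1.05% were called higher and 0.37% lower. Kif11 had the smallest p (-0.80 ± 0.21, adjusted p = 0.126), followed by Cdk1 (-0.44 ± 0.13, adjusted p = 0.162) and Cdc20 (-0.44 ± 0.14, adjusted p = 0.18). OSM lay below untreated in all 4 pairs for 12 members (Aurka, Ccna2, Ccnb2, Cdc20, Cdk1, Kif11, Kif20a, Kif2c, Nek2, Prc1, Racgap1 and Stmn1), against 15.7% of all probe sets, and above it in all 4 for none, against 13.4%. The difference of the OSM effect between the lines was called for no probe set (0%; 29 had an unadjusted p under 0.05), with a median of 0.45 for the members. The 3 smallest p were Smc4 (0.90 ± 0.54), Kif22 (0.86 ± 0.59) and Mad2l1 (0.89 ± 0.62), each with adjusted p = 1. That difference was fitted on group means too, which ranks genes with a small difference between the title numbers first. The genotype and OSM comparisons share groups of arrays and are not independent of one another.

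**Figure D4:**
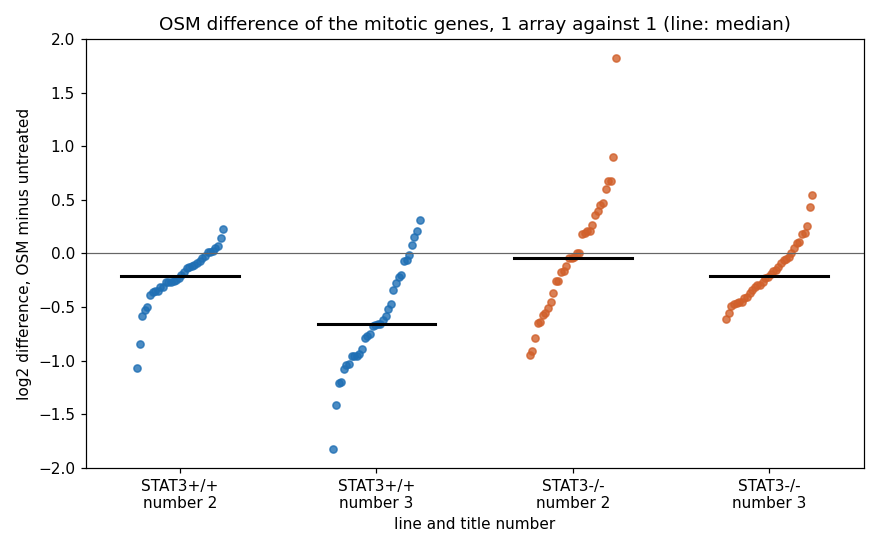
Log2 difference, OSM minus untreated (y axis), of the 34 mitotic genes in each line and title number (x axis), 1 point a gene and 1 array against 1, with lines at the medians of -0.21, -0.66, -0.04 and -0.21. Most points lie below 0 in STAT3+/+ cells of title number 3, and the highest point in STAT3-/- cells of title number 2 is Smc2 at 1.82.

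Other cell cycle genes also differed between the title numbers. These lists, and those of the next paragraph, were likewise chosen with earlier results of these data known. The counts stand beside 17.7% of all probe sets called lower in title number 3 and 23.4% called higher, with a median of 0.09. Of 50 further tested mitotic genes 24 were lower in title number 3 and 3 higher, with a median of -0.87. The spindle motor Kifc1 read 6.50 to 10.11 in title number 2 and 1.53 to 2.67, at background, in title number 3, so its difference has no exact size, and the spindle pole gene Aspm differed by -3.87 ± 0.35 (adjusted p = 0.00323). Of 49 genes of the G1/S transition and DNA replication 22 were lower and 5 higher, with a median of -0.99. In title number 3, 10 of these 49 rose in STAT3-/- cells and none fell, with a median of 0.63. Of all probe sets, 3.83% were called higher and 2.95% lower in that comparison. The replication licensing genes Cdc6 and Mcm5 gave the largest differences of genotype differences among them (4.87 ± 0.37 and 4.04 ± 0.42, adjusted p = 0.00517 and 0.00787), though Cdc6 read 3.46 and 3.07, at background, in STAT3+/+ cells of title number 3. Of 17 CDK inhibitor, p53 and growth arrest genes 7 were higher in title number 3 and 1 lower, with a median of 0.71. Cdkn1b, p27, read 5.52 to 6.84 in title number 2 and 7.24 to 7.58 in title number 3 (1.44 ± 0.23, adjusted p = 0.00887). Cdkn2a, of the Ink4a/Arf locus, read 9.79 and 9.66 untreated and 10.16 and 8.32 with OSM in STAT3+/+ cells, and 10.98 and 11.02 untreated and 10.66 and 10.92 with OSM in STAT3-/- cells. It rose in STAT3-/- cells within title number 3 (1.98 ± 0.39, adjusted p = 0.0392) and did not pass between the numbers (-0.42 ± 0.38). Myc was higher in title number 3 (0.96 ± 0.29, adjusted p = 0.0432), and Ccnd1 did not pass there (-0.88 ± 0.57, adjusted p = 0.255). Cdkn1a read under 3 on every array and was not tested, and no probe set carried Trp53 as its single symbol.

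Interferon-stimulated genes, which cells switch on in response to interferon, were higher in title number 3. Of 31 tested, 24 were called higher there and none lower, with a median of 3.36, against 23.4% of all probe sets higher and 17.7% lower. Their mean over the list was 7.24 and 9.41 untreated and 8.03 and 10.24 with OSM in STAT3+/+ cells, and 7.75 and 12.06 untreated and 9.48 and 13.37 with OSM in STAT3-/- cells. Within title number 3 both the mitotic and the interferon list were higher in STAT3-/- cells, the interferon genes with 21 of 31 called. Of all probe sets, 3.83% were called higher and 2.95% lower in that comparison. Of 11 tested fibroblast markers, 8 were higher in title number 3 and none lower within STAT3+/+ cells (median 0.60). Of all probe sets, 23.1% were higher and 20.4% lower there. Within STAT3-/- cells 2 markers were higher and none lower (median 0.17), beside 13.9% of all probe sets higher and 11.8% lower. In title number 3 no marker was higher and 4 were lower in STAT3-/- cells, with a median of -0.11. Of the 8 muscle markers the 2 tested, Myog and Tnnt2, were lower in title number 3 (-1.46 and -2.15), while Myod1, Des, Acta1 and Ckm read under 3 on all arrays. The 18S control, given above, also separated the numbers without overlap. The part of any of these in the mitotic result was not tested.

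**Figure D5:**
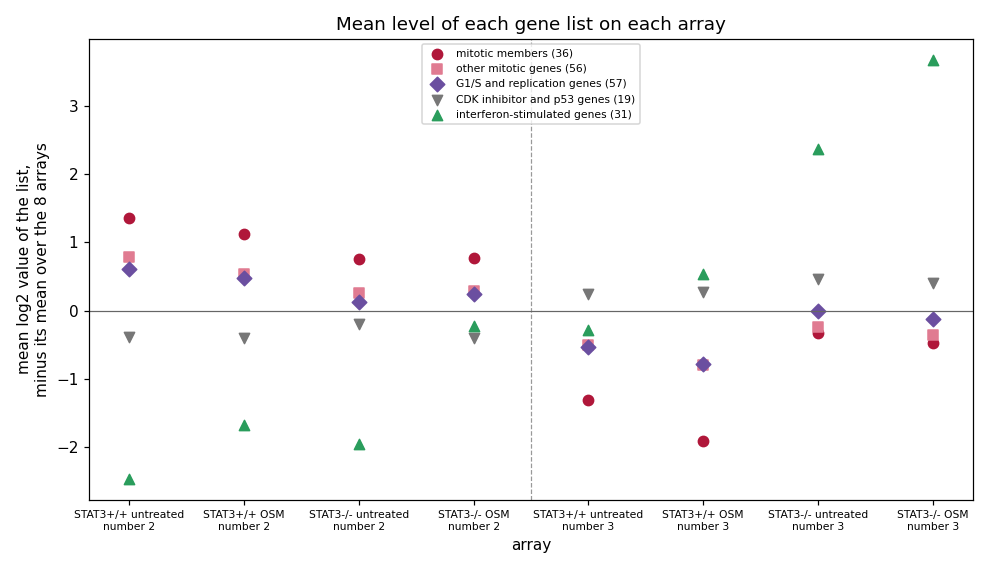
Mean log2 value of each gene list minus its mean over the 8 arrays (y axis), for each array (x axis), 1 marker shape a list, as the key gives them. The mitotic genes are highest on the STAT3+/+ arrays of title number 2 and lowest on those of title number 3, and the interferon-stimulated genes are highest on the STAT3-/- arrays of title number 3.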

How the data were processed

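The 8 arrays (Affymetrix, total RNA of MEF lines) came as 1 table of log2 values. The authors made these log2 expression values with affy and GCRMA, per the submitters' processing notes, with no versions given. The sources used here do not say whether all arrays were normalised together. GCRMA subtracts an estimated background, so dim probe sets gather at low values. The values were used as deposited, with the 66 control probe sets set aside, and probe sets were named through the platform annotation where it gave 1 symbol (10833 probe sets; 396 had several). Arrays were grouped by their titles.

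The tests used limma 3.58.1 under R 4.3.3 (lmFit and eBayes with an intensity trend, two-sided, Benjamini-Hochberg over all 6756 probe sets tested, threshold 0.05), a script checked on simulated data. The simulated OSM changes were set in data without a title number difference. The check thus does not show that the fits on group means recover changes in the presence of that difference. Genotype and OSM were fitted on 4 group means (4 residual degrees of freedom). The title number was added to these, and genotype within title number was fitted with OSM, genotype, title number and their interaction (3 residual degrees of freedom each). Arrays with the same title number deviated together: the correlation of the numbers' difference was 0.589 to 0.9106 over the 6 pairs of groups, so the number was also used as a block. It was highest between the untreated and OSM groups of a line (0.9106 in STAT3+/+ and 0.7935 in STAT3-/-), against 0.589 to 0.6638 across lines. The fits within a number or a line use such untreated and OSM arrays as replicates. They may not be independent, which the block does not address. Promoters were RefSeq's (GRCm38.p6). The members and lists were chosen with earlier results of these data known. Shown array by array are, in each role, the member with the highest mean and the one with the largest difference between title numbers, and in each comparison the 3 smallest p and the members called for genotype or OSM. Alternatives were the filter, the trend, quantile normalisation, a floor at 5, another probe set, the block, the promoter window and leaving out each array. The fits within each line were added after seeing the data. The 8 arrays limit the precision.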

Additional observations from a re-analysis of the deposited data

Results flagged for a closer look

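In 19 mitotic genes the difference between the title numbers itself differed between the lines, with a smaller fall in STAT3-/- cells in each (limma, adjusted p under 0.05). These genes were chosen with this pattern known, so the values describe it and do not test it. The log2 size of that difference was 4.02 for Cdca8, 3.53 for Ccnf, 2.65 for Kif2c, 2.63 for Top2a, 2.43 for Prc1, 2.42 for Bub1, 2.38 for Cdk1, 2.26 for Kif4, 2.24 for Incenp and 2.23 for Kif11. It was 2.21 for Aurkb, 2.19 for Aurka, 2.10 for Ttk, 2.01 for Ccna2, 1.93 for Cdc20, 1.90 for Birc5, 1.79 for Kif20a, 1.58 for Stmn1 and 1.34 for Ccnb2.

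In 6 mitotic genes OSM arrays lay below untreated ones in both STAT3+/+ pairs and above them in both STAT3-/- pairs, against 9.52% of all probe sets. The difference of the OSM effects was 0.89 for Mad2l1, 0.86 for Kif22, 0.82 for Mki67, 0.71 for Top2a, 0.68 for Kif4 and 0.65 for Bub1. None passed the test of that difference (limma adjusted p = 1 for each).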

How the results depend on the processing

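The alternatives followed 112 calls of single members, those of the genes chosen to be shown array by array. Calls of Cdc25c, Tacc3 and Mki67 were not among them. None of the 112 changed direction under any alternative. Outside the settings that left out an array, 659 repeats kept the call and 13 lost it. With an array left out 601 kept it and 295 lost it. With the most variable probe set of each gene, 2 members were called for genotype within title number 2. The median within STAT3-/- cells between the title numbers was -1.16 without the filter, -1.33 after quantile normalisation and -1.29 with the most variable probe set. The E2F motif was in 0% of member promoters over the last 100 bases. With the title number as a replicate block, members called for genotype and OSM stayed at 0. The block leaves the unlike number difference of the lines in the spread. Leaving out each array in turn gave medians of -1.30 to 1.67 (genotype without OSM), -1.11 to 2.10 (genotype with OSM), -2.02 to 1.26 (OSM in STAT3+/+), -0.75 to 0.56 (OSM in STAT3-/-) and -1.30 to 1.92 (their difference). Where the array belongs to the comparison, the title numbers are then unbalanced and their difference enters these medians. For OSM with title number and genotype held, the medians were -0.31 to -0.16. Members called between title numbers were 14 to 29. For genotype they were 0 to 3 within title number 2, 0 to 24 within title number 3 (median 1.04 to 1.5) and 0 to 23 for the difference (median 1.54 to 2.00). Within STAT3+/+ cells the title number median was -3.45 to -3.05, and within STAT3-/- cells 4 to 23 members were called (median -1.40 to -1.03). With an array left out, a side can hold 1 array, which is then assumed to vary like the others. Genes near background, such as Ccnf and Kif2c in title number 3, have imprecise sizes.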
